A study of Mus musculus with 3 samples.

Results

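The cells described here are low-UMI cells, the shallowest droplets of each of 3 single-cell libraries of CD133+ mouse bone marrow cells. A cell belonged to them when at least 200 genes were detected in it, when at most 20% of its UMIs (unique molecular identifiers, which count captured RNA molecules) came from mitochondrially encoded genes, and when its UMI total lay below the 5th percentile of its own library. They numbered 1469 of 29828 cells, with 413 of 8362 in the Young library, 526 of 10597 in the Old library and 530 of 10869 in the Ctrl library. Cells of this kind are removed when the UMI distribution is trimmed at its 5th and 95th percentiles, so they were compared with the 26838 middle cells that remain after trimming, namely 7521, 9537 and 9780 cells. No barcode was shared between libraries.

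Each library held pooled cells of 3 C57BL/6 mice, with no transgene or treatment named in the labels, and each library is the only sample of its label. Young and Ctrl carry a labelled age of 3 months and Old one of 27 months, whereas the design text of the series gives 18.5 months for the old mice. The cells were stained for CD133, the product of Prom1, and sorted by flow cytometry, a gate that the study describes as holding endothelial-like cells. How Ctrl differs from Young is not given in the labels, so the 3 libraries are described side by side and no test was made between them. In the paper, the cell number of Ctrl is that of a first CD133+ profile from 3 C57BL/6N mice. Those of Young and Old belong to a separate comparison of young and old mice.

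A neutrophil develops in bone marrow from a dividing promyelocyte, which fills azurophil granules with Mpo and elastase, through myelocytes that make specific granule proteins such as lactoferrin and Ngp, to a nondividing mature cell that carries gelatinase, chemokine receptors and resistin-like gamma. Transcription, ribosome content and total RNA decline along this path, so that mature neutrophils are known as cells with little RNA. In droplet data a low UMI total is also seen in damaged cells that have lost cytoplasmic RNA and in droplets that hold mainly free RNA of lysed cells.

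The UMI totals, and with them the gene numbers, follow from how the cells were chosen and are given as a description. The lower limits lay at 3273 UMIs per cell in Young, 5344 in Old and 3422 in Ctrl, so that a low-UMI cell of Old could be deeper than a middle cell of the other libraries. Low-UMI cells had medians of 2957, 4460 and 3059 UMIs and 836, 1078 and 859 genes in Young, Old and Ctrl. Middle cells had medians of 9720, 13039 and 9560.5 UMIs and 2012, 2342 and 1947 genes. After every cell was thinned to 1000 UMIs, low-UMI cells still had fewer genes, with medians of 375, 374 and 372 against 408, 417 and 405. Summed over cells, low-UMI cells held 1223187, 2286488 and 1605629 UMIs, which was 1.502%, 1.66% and 1.47% of the UMIs of their libraries. Levels are given as UMIs per 1000000 UMIs of the summed cells (CPM), and a gene with 0 UMIs could be as high as 2.45 CPM in low-UMI cells of Young, 1.31 CPM in Old and 1.87 CPM in Ctrl, by counting error alone.

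Among genes with a mean of at least 50 CPM that passed the test described below, Retnlg, the resistin-like gamma gene of mature neutrophils, had the largest minimum log2 ratio over the 3 libraries (3.80; GRCm38 chromosome 16, 48872621 to 48874496). Mmp8, neutrophil collagenase (chromosome 9, 7558456 to 7568485), and Mmp9, gelatinase B (chromosome 2, 164940780 to 164955850), followed the same pattern. The promoters of Retnlg and Mmp8 are shown because both genes rose in low-UMI cells and because these are the only promoters among those of the maturing neutrophil list that hold the letters TTNNGCAA, the core recognised by C/EBP factors, which drive granulocyte genes. Each runs from 250 bases before to 50 bases after the gene's start in RefSeq's GRCm38.p6 annotation, Retnlg at chr16:48872358-48872657 and Mmp8 at chr9:7558179-7558478, both on the plus strand, with the match in capitals.
Retnlg: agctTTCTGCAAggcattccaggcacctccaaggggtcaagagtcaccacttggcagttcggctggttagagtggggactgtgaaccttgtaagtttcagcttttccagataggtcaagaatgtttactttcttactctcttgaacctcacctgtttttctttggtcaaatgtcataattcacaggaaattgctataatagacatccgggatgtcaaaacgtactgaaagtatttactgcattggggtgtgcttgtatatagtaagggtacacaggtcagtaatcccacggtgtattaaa
Mmp8: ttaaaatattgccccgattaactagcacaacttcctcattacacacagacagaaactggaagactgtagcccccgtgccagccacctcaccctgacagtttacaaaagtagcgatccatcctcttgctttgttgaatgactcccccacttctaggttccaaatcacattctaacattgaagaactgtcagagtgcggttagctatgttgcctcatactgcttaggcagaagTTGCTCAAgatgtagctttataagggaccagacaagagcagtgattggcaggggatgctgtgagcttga
The match started 246 bases before the start of Retnlg on the same strand, and 19 bases before the start of Mmp8 on the opposite strand. Searched on both strands, these letters occurred in 2 of 13 maturing neutrophil promoters in the RefSeq table, in 4 of 8 specific granule promoters (Fcnb, Lcn2, Ltf and Ngp), in 1 of 7 azurophil granule promoters (Ms4a3) and in 10.8% of 32851 promoters in all. A match of letters is a description of the sequence, and the data hold no measurement of binding.

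The question of which RNA sets low-UMI cells apart from the middle cells of the same library was put to edgeR's quasi-likelihood test on the 6 sums of UMIs, with the library as a block. Of 5420 genes with a mean of at least 10 CPM, 1080 rose in low-UMI cells, which is 19.9% of genes tested, and 1985 fell, which is 36.6%, both at a Benjamini-Hochberg adjusted p below 0.05. The direction was the same in all 3 libraries for 3032 of the 3065 genes called, and 245 genes rose and 76 fell at least 2-fold in every library. Scaling by total UMIs placed the median gene at a log2 difference of −0.19. With edgeR's TMM scaling, which shifted the median by 0.21, 1480 genes rose and 1269 fell, so that 53.8% of calls were higher in low-UMI cells against 35.2%. The p-values measure the spread between 3 single libraries, of which Old differs in age from the others, not between replicates of 1 condition. A filter on the mean over both ranges lets in genes that reach it only through their low-UMI levels, as 293 did, and of the 5127 genes with a mean of at least 10 CPM in middle cells 850 rose, which is 16.6%, and 1985 fell, which is 38.7%.

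Of the 16 genes of the maturing neutrophil list, 14 had a mean of at least 10 CPM in middle cells, and all 14 rose, beside 16.6% of genes with that level. The other 2, Il1b and Clec4d, reached the filter only through their low-UMI levels and are given as values. The median log2 difference of the 14 was 2.16, beside −0.23 over all genes with that level in middle cells. Together these genes took 33957 CPM in low-UMI cells against 6852 CPM in middle cells of Young, 32109 against 8938 CPM in Old, and 19104 against 6984 CPM in Ctrl. Their summed log2 ratio was 2.31 in Young, 1.84 in Old and 1.45 in Ctrl, a mean of 1.87 ± 0.43 (SD, n = 3 libraries). The lowest of the low-UMI levels, in Ctrl, was more than the highest of the middle levels, in Old. Wfdc21 had the lowest ratio of the 16, with 6843 against 5194 CPM, 8133 against 6644 CPM and 7489 against 6050 CPM, a log2 ratio of 0.33 ± 0.06 (edgeR adjusted p = 0.00853). Against cells of the 5th to 10th percentile, 15 genes of the list had at least 10 CPM in the cells compared with. Of these, 3 rose (median log2 difference 0.43). With middle cells weighted to the cluster mix of low-UMI cells, 10 of 15 rose (median 0.70).

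Retnlg took 21995 CPM in low-UMI cells of Young, 19360 CPM in Old and 9152 CPM in Ctrl, against 1032, 1393 and 465 CPM in middle cells. The 2 ranges did not overlap, and the log2 ratio was 4.17 ± 0.33 (SD, n = 3 libraries, edgeR adjusted p = 3.67e-09). Mmp9 stood at 1030, 734 and 506 CPM in low-UMI cells against 86.7, 130 and 54.9 CPM in middle cells, a log2 ratio of 3.09 ± 0.54 (edgeR adjusted p = 2.46e-07). For Mmp8 the low-UMI levels were 1661, 1321 and 704 CPM against 105, 155 and 41.4 CPM, a log2 ratio of 3.72 ± 0.54 (edgeR adjusted p = 8.13e-08). All 3 genes were highest in low-UMI cells of Young and lowest in those of Ctrl, whereas among middle cells Old had the highest level of each.

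Some genes of the maturing neutrophil list encode receptors. Cxcr2, a receptor for CXC chemokines that draws neutrophils out of the marrow, stood at 240, 306 and 167 CPM in low-UMI cells of Young, Old and Ctrl against 27.5, 76.4 and 37.8 CPM. Fpr1, a receptor for formylated peptides, stood at 206, 220 and 63.5 CPM against 11.97, 30.1 and 5.90 CPM. Clec4d, a C-type lectin receptor of myeloid cells, had 110, 70.9 and 62.9 CPM against 8.60, 5.81 and 3.99 CPM, a log2 ratio of 3.75 ± 0.20 that is given with no test. For each of these 3 receptors, every low-UMI level lay above every middle level. How many of all genes were separated in this way was not counted, but 245 of the 5420 genes tested rose at least 2-fold in every library. Csf3r, the receptor for granulocyte colony-stimulating factor, rose by less, with 113, 145 and 85.9 CPM against 46.0, 44.9 and 45.8 CPM.

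Among secreted factors, Ccl6, a chemokine of myeloid cells, took 688, 547 and 115 CPM in low-UMI cells of Young, Old and Ctrl against 84.0, 24.6 and 11.3 CPM, a log2 ratio of 3.62 ± 0.76. Il1b, which encodes interleukin-1 beta, had 33.5, 41.1 and 6.23 CPM against 5.75, 0.936 and 0.698 CPM, a log2 ratio of 3.72 ± 1.54 that is likewise given with no test. Both genes were much lower in low-UMI cells of Ctrl than in those of Young and Old. Prok2, a chemoattractant peptide made by neutrophils, had 357 CPM in low-UMI cells of Old against 32.7 CPM in Young and 70.4 CPM in Ctrl, with 2.48, 31.0 and 3.34 CPM in middle cells of Young, Old and Ctrl. Ccl6, Il1b and Prok2 each overlap a gene on the opposite strand, and whether reads of that strand were counted is not stated. Mxd1, a repressor that opposes Myc, rose from 52.8 to 287 CPM in Young, from 75.9 to 213 CPM in Old and from 69.9 to 247 CPM in Ctrl.

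**Figure D1:**
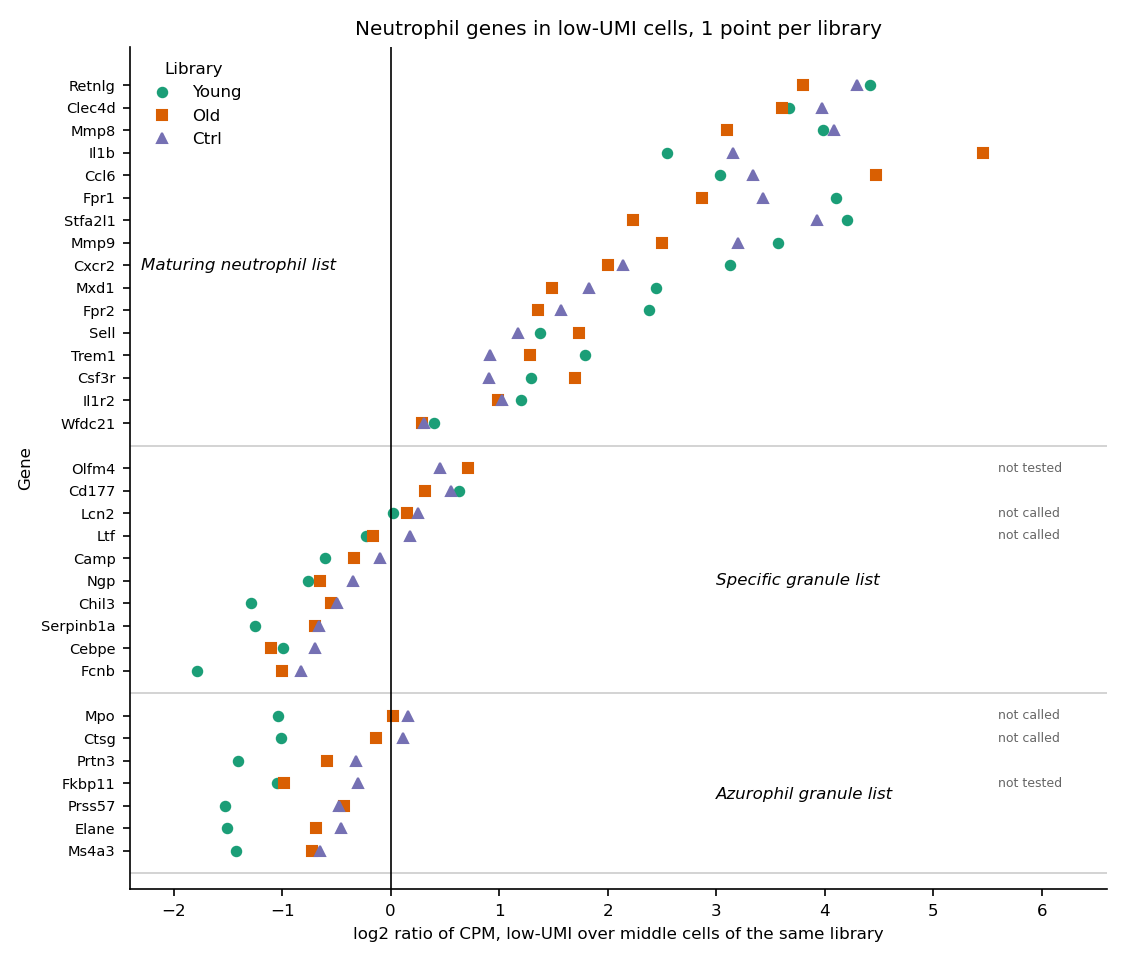
Log2 ratio of CPM in low-UMI over middle cells of the same library, 1 point per library (Young, Old, Ctrl) and 1 row per gene, grouped by gene list and ordered by the mean ratio within a list. Retnlg has a mean ratio of 4.17 and Wfdc21 one of 0.33, whereas Elane in the azurophil list has −0.88; words at the right mark genes that did not pass the test or were not tested.

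Most genes of the specific granules, which neutrophil precursors make, were lower. The specific granule list took 80573 against 126556 CPM in Young, 87062 against 117603 CPM in Old and 118649 against 135874 CPM in Ctrl, a log2 ratio of −0.43 ± 0.23. Of its 9 genes tested, 6 fell and 1 rose, with a median log2 difference of −0.59 beside −0.19 over all genes tested and 36.6% of them that fell. With TMM scaling 5 fell and 2 rose, with middle cells weighted to the cluster mix of low-UMI cells 5 fell and none rose, without the library as a block 3 fell and none rose, and none passed against cells of the 5th to 10th percentile. Ngp, neutrophilic granule protein, fell from 49406 to 29132 CPM, from 52980 to 33803 CPM and from 55740 to 43838 CPM (log2 ratio −0.59 ± 0.21, edgeR adjusted p = 0.000318). Camp, the cathelicidin gene, fell from 53996 to 35468 CPM in Young and from 36865 to 29110 CPM in Old but was close to the middle level in Ctrl, with 49247 against 52610 CPM. Cebpe, the transcription factor of the specific granule programme, stood at 503, 426 and 592 CPM against 999, 918 and 956 CPM, a log2 ratio of −0.93 ± 0.21. Cd177, a surface protein that neutrophils keep after their granules are made, was the member that rose, with 658, 956 and 744 CPM against 425, 765 and 507 CPM (edgeR adjusted p = 0.00251).

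The 2 granule genes Lcn2 and Ltf did not pass the test, with log2 ratios of 0.14 ± 0.12 (edgeR adjusted p = 0.212) and −0.07 ± 0.22 (edgeR adjusted p = 0.579). Of the azurophil granule list, 6 of 7 genes were tested, 4 fell and none rose, with a median log2 difference of −0.76, beside 36.6% of all genes that fell and a median of −0.19. None of the 6 fell with middle cells weighted to the cluster mix of low-UMI cells or against cells of the 5th to 10th percentile, and none passed without the library as a block. The list took 5567 against 14232 CPM in Young, 7892 against 11003 CPM in Old and 11635 against 14246 CPM in Ctrl, so the gap was widest in Young. Elane, neutrophil elastase, stood at 2584, 3002 and 5171 CPM against 7348, 4824 and 7117 CPM, a log2 ratio of −0.88 ± 0.55 (edgeR adjusted p = 0.000696). Mpo, myeloperoxidase, did not pass the test, with 1193 against 2450 CPM in Young, 1501 against 1478 CPM in Old and 2277 against 2043 CPM in Ctrl (edgeR adjusted p = 0.216), and a gene annotated on the other strand overlaps it. Prom1, which encodes the CD133 used for the sort, had 21.3, 45.5 and 48.6 CPM against 43.3, 46.5 and 52.6 CPM, and this difference did not pass the test (log2 ratio −0.39 ± 0.55, edgeR adjusted p = 0.16).

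All 10 mitosis genes and all 10 S phase genes fell, beside 36.6% of all genes tested. With middle cells weighted to the cluster mix of low-UMI cells, 1 mitosis gene and no S phase gene fell (median log2 differences −0.25 and 0.12), and none of either list fell against cells of the 5th to 10th percentile. The mitosis list stood at 742 against 1969 CPM in Young, 939 against 1961 CPM in Old and 1125 against 1882 CPM in Ctrl. Kpna2, an importin, was the gene with the lowest ratio among those named by the rule, with 25.3, 37.2 and 38.6 CPM against 122, 114 and 112 CPM (log2 ratio −1.80 ± 0.40, edgeR adjusted p = 5.34e-06). Its low-UMI levels lay below every middle level. Rrm2, a subunit of ribonucleotide reductase, and Ube2c, a ubiquitin-conjugating enzyme of mitotic exit, had log2 ratios of −1.36 and −1.19. Ran, the GTPase of nuclear transport, fell by nearly the same amount in each library, with a log2 ratio of −1.21 ± 0.08.

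Ribosomal protein genes, the longest list, were mostly lower. Of 79 tested, 77 fell and none rose, beside 36.6% and 19.9% of all genes tested. Their median log2 difference was −0.74 beside −0.19 over all genes tested. They took 67485 against 110195 CPM in Young, 66915 against 123262 CPM in Old and 68615 against 107384 CPM in Ctrl, so the 3 low-UMI sums were nearly equal. With the mix weighted, 4 of the 79 fell, beside 96 of all 5222 genes tested. Against cells of the 5th to 10th percentile, none of 80 tested fell. Rpl3, a protein of the large subunit, stood at 552, 462 and 524 CPM against 1203, 1350 and 1118 CPM. The nuclear-retained RNAs moved the other way: Malat1 rose from 6360 to 14885 CPM, from 4548 to 11894 CPM and from 5712 to 11090 CPM (log2 ratio 1.19 ± 0.22, edgeR adjusted p = 5.15e-06). Neat1, the scaffold of paraspeckles, rose with it (log2 ratio 1.25 ± 0.08). A high share of nuclear RNA is also a sign of lost cytoplasm, and its part in the differences above was not tested.

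Of 6 immediate early genes tested, Fos, Jun and Dusp1 reached the filter only through their low-UMI levels, and of the other 3 Junb and Zfp36 rose, beside 16.6% of genes with that level in middle cells. Dusp1, a phosphatase that switches off MAP kinases, stood at 79.3, 75.2 and 26.2 CPM in low-UMI cells of Young, Old and Ctrl against 6.98, 5.93 and 3.19 CPM, and Junb, a subunit of AP-1, stood at 174, 299 and 100.3 CPM against 39.5, 71.4 and 34.4 CPM. The 3 heat shock genes tested (Dnajb1, Hsp90aa1 and Hspa8) fell, beside 36.6% of all genes tested, but none did with the mix weighted (median log2 difference 0.0109). Of 4 genes of the BCL2 family tested, Mcl1 and Bcl2l1, which protect against apoptosis, rose, and Bax and Bak1, which promote it, fell, beside 19.9% and 36.6% of all genes tested. With the mix weighted, 1 of the 4 rose and none fell, and none of 5 tested passed against cells of the 5th to 10th percentile. Mcl1, on which neutrophil survival depends, had 126, 83.5 and 86.6 CPM against 32.6, 20.9 and 24.8 CPM, a log2 ratio of 1.92 ± 0.10. Among 7 myeloid transcription factors tested, Cebpb and Spi1 rose and Cebpe fell, beside 19.9% and 36.6% of all genes tested. Of 6 genes tested of the NADPH oxidase, which makes the respiratory burst, 2 rose and none fell, beside 19.9% and 36.6% of all genes tested. With TMM scaling 4 rose. Its subunit gene Cyba did not pass the test (log2 ratio −0.01 ± 0.04, edgeR adjusted p = 0.947). Under TMM scaling, 1 of the 3 heat shock genes and 1 of the 2 proapoptotic genes still fell.

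Of the 9 interferon-stimulated genes with a mean of at least 10 CPM in middle cells, 8 rose, beside 16.6% of all genes with that level, but their level was largely that of 1 library. The list took 5446 CPM in low-UMI cells of Young against 272 CPM in Old and 213 CPM in Ctrl, and 1600, 55.4 and 83.1 CPM in middle cells. Ifi27l2a, an interferon-induced mitochondrial protein gene, stood at 3490, 106 and 86.6 CPM against 812, 7.56 and 15.9 CPM (log2 ratio 2.79 ± 0.90). Young was thus far above the other libraries in both ranges, and Ctrl, of the same labelled age, had the lowest low-UMI level. Without the library as a block, none of the 10 genes passed edgeR's test.

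Mitochondrial RNA divided the libraries. Cells of both ranges were chosen under a limit of 20% on this RNA, so its values and its counts of passing genes are a description only. This RNA made up 1.45% of low-UMI UMIs in Young against 1.62% in middle cells, 2.09% against 1.37% in Old and 2.73% against 1.69% in Ctrl. Of 12 mitochondrially encoded genes tested, 7 passed as higher in low-UMI cells, beside 19.9% of all genes, although of these only mt-Nd3 was higher in all 3 libraries and the other 6 were lower in Young. With TMM scaling all 12 passed as higher, and without the library as a block none did. The count was 11 without Young, 0 without Old, 1 without Ctrl and 0 with the clusters of other blood cells left out. Mt-Atp6, a subunit of ATP synthase, did not pass the test, with 3917, 5696 and 7403 CPM against 4753, 4016 and 4780 CPM (edgeR adjusted p = 0.119). The share of cells with over 5% mitochondrial UMIs was higher in low-UMI cells of each library, at 6.05% against 2.45% in Young, 11.2% against 0.535% in Old and 14.5% against 2.94% in Ctrl. A further 23 cells below the lower limits, 5, 4 and 14, were left out because they exceeded 20%.

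**Figure D2:**
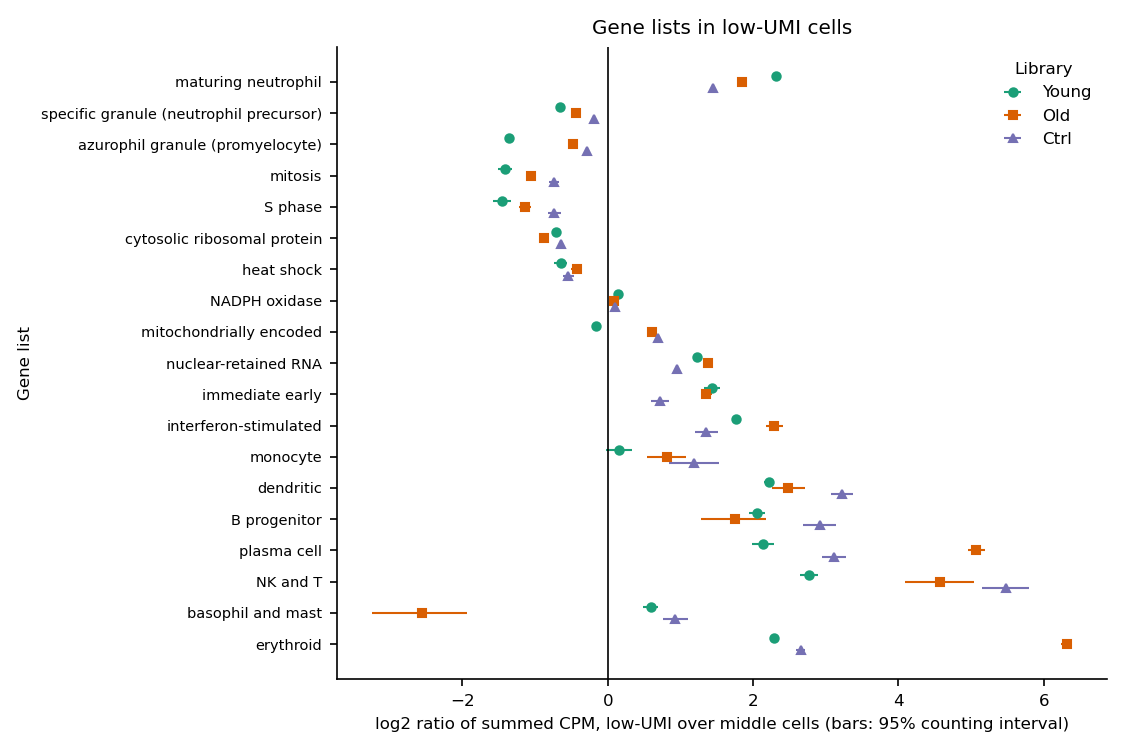
Log2 ratio of summed CPM in low-UMI over middle cells for each gene list, 1 point per library with its 95% counting interval. The maturing neutrophil list lies at 2.31, 1.84 and 1.45 in Young, Old and Ctrl, the mitochondrially encoded list is below 0 in Young only (−0.16 against 0.61 and 0.69), and the basophil and mast list is below 0 in Old only.

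Genes of several other blood cells were also more abundant per UMI, and how many cells carried them differed between lists and libraries. All 4 dendritic genes and 4 of 5 erythroid genes tested rose, beside 19.9% of all genes tested, while neither basophil and mast cell gene passed the test (3 of 3 rose without Old). Of genes with a mean of at least 10 CPM in middle cells, of which 16.6% rose in all, both B progenitor genes, 2 of 3 monocyte genes, 1 plasma cell gene and 1 NK and T cell gene also rose, and 3, 1, 1 and 1 more reached the filter only through their low-UMI levels. Without the library as a block, a single gene of all these lists, in the plasma cell list, passed edgeR's test. The monocyte count depended on the libraries: of 4 genes tested, 1 rose and 1 fell without Old, and 1 rose without Ctrl. Without Young, 1 of 1 tested rose. No monocyte gene passed with the mix weighted or with the lower limit at the 2nd percentile. Without the 5 cells with most of its UMIs in low-UMI cells, and without the same fraction of middle cells (91, 91 and 92 cells), the dendritic list was at 596, 10.9 and 31.1 CPM in Young, Old and Ctrl against 67.5, 8.07 and 10.5 CPM. Treated alike, the B progenitor list was at 259.98, 6.12 and 13.08 CPM against 42.4, 3.87 and 8.19 CPM, and the monocyte list at 153, 20.1 and 11.8 CPM against 136, 13.5 and 6.54 CPM. Monocyte UMIs were spread over 74 low-UMI cells of Young, with 29.7% of them in 5 cells. Hbb-bs, an adult beta globin, took 1523, 691 and 631 CPM in low-UMI cells of Young, Old and Ctrl against 308, 5.05 and 89.8 CPM. An erythroid UMI was found in 196 of 413 low-UMI cells of Young, 23 of 526 of Old and 83 of 530 of Ctrl. Most erythroid UMIs lay in few cells, of which 5 held 94.2% in Young, 99.5% in Old and 96.5% in Ctrl. A single cell held 2482 of 4847, 3594 of 3620 and 2250 of 2348. Without those 5 cells, the erythroid level was 229 CPM in Young, 7.87 CPM in Old and 51.7 CPM in Ctrl, against 133, 7.01 and 32.6 CPM in middle cells without the same fraction of cells. With the clusters of other blood cells left out, none of the 4 erythroid genes tested passed, and 1 of 2 dendritic genes tested rose (median log2 difference 0.95). Against cells of the 5th to 10th percentile, no dendritic, erythroid, B progenitor or monocyte gene passed, while 1 plasma cell gene and 1 NK and T cell gene rose. Adult globin genes are near-identical copies, so the counts of each copy are uncertain.

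Jchain, which joins secreted antibodies in plasma cells, had 261, 421 and 199 CPM against 44.2, 11.4 and 23.4 CPM (log2 ratio 3.62 ± 1.40, edgeR adjusted p = 2.24e-05). Of the plasma cell list's UMIs, 90.1%, 99.3% and 92.7% lay in 5 low-UMI cells of Young, Old and Ctrl, and with the lower limit at the 2nd percentile the log2 difference of Jchain was −1.06. Ccl5, a chemokine of NK and T cells, had 347, 17.1 and 73.5 CPM against 36.2, 0.692 and 1.31 CPM, with 82.8%, 100% and 99.3% of the list's UMIs in 5 cells. Cd74, the invariant chain of antigen-presenting cells, stood at 894, 47.2 and 173 CPM against 182, 4.95 and 14.3 CPM, and 5 cells held 56.2%, 92.6% and 90.6% of its low-UMI UMIs. Low-UMI sums hold fewer cells than middle sums, so that 1 cell weighs more in them. The same fraction of middle cells (91, 91 and 92 cells) held 83.5%, 64.8% and 85.9% of the erythroid UMIs of that range.

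**Figure D3:**
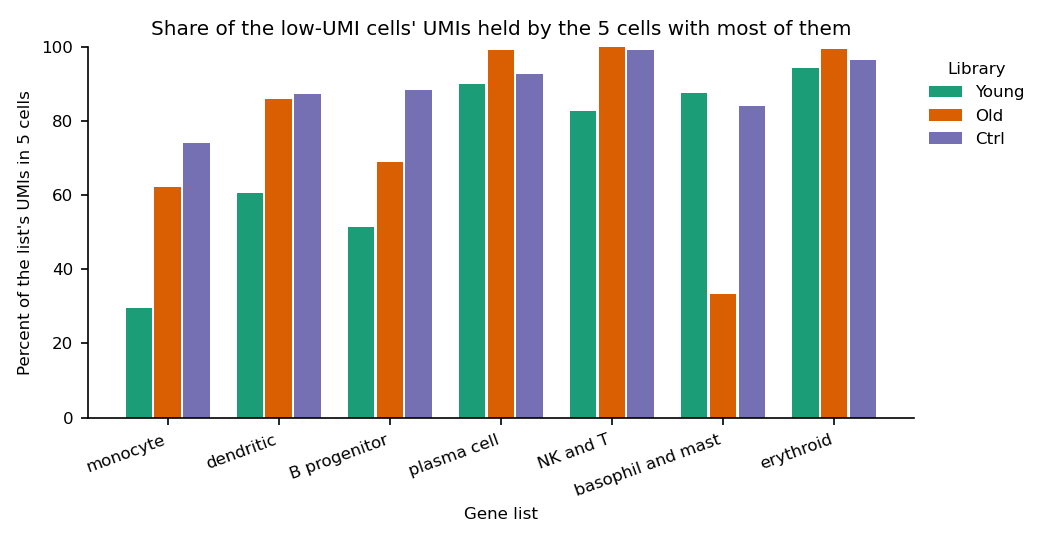
Percent of a gene list's UMIs in low-UMI cells that lay in the 5 cells with most of them, for lists of other blood cell types in Young, Old and Ctrl. Erythroid bars stand at 94.2%, 99.5% and 96.5%, and monocyte bars at 29.7%, 62.3% and 74.0%.

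Endothelial genes, which the description of the sorted population would lead one to look for, were close to 0. The list took 11.4, 6.12 and 8.72 CPM in low-UMI cells of Young, Old and Ctrl and 10.9, 9.13 and 7.77 CPM in middle cells. Cdh5, Kdr, Tek, Cldn5 and Ptprb, which define endothelial cells, had 0 UMIs in the low-UMI cells of all 3 libraries, and no gene of the list reached a mean of 10 CPM. The low-UMI cells were therefore not marked by endothelial RNA at this depth.

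The limit cut through a gradual change in Retnlg. Along the ranking of cells by UMI total, Retnlg was at 11904 CPM between the 5th and 10th percentiles of Young, at 5225 CPM in the next 5 percentiles and at 604 CPM between the 45th and 50th. The same 3 levels were 12153, 5857 and 805 CPM in Old and 5026, 2977 and 222 CPM in Ctrl. Cells just inside the limit, from the 4th to the 5th percentile, had 17585, 13510 and 8377 CPM of Retnlg in Young, Old and Ctrl, and cells just outside it, from the 5th to the 6th, had 13102, 14776 and 5877 CPM. Other lists differed more between these narrow ranges of 84 to 111 cells, such as the azurophil granule list in Young, with 4307 CPM inside and 9727 CPM outside, and the erythroid list in Ctrl, with 53.8 CPM inside and 8161 CPM outside. Compared with cells between the 5th and 10th percentiles, low-UMI cells differed in 11 genes by edgeR's test, all higher, and 406 genes had an unadjusted p below 0.05. Of the 11, 9 had a mean of at least 10 CPM in the cells compared with, and among these were Retnlg (log2 difference 0.81, edgeR adjusted p = 7.68e-05), Ccl6, Clec4d, Dusp1, Junb, Gadd45a, Jchain and Ccl5, named because they passed that test. Mmp9 and Mmp8 were not among the 11.

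**Figure D4:**
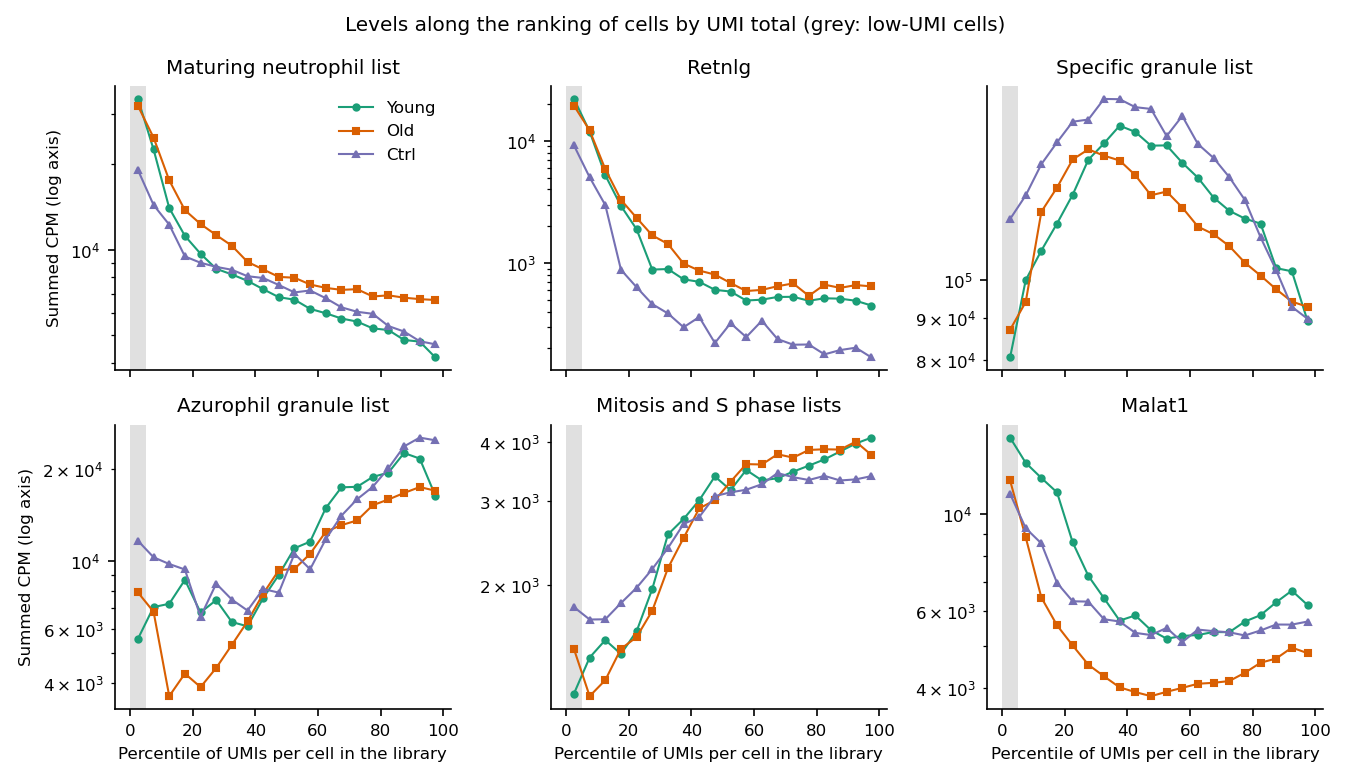
Summed CPM on a log axis against the percentile of UMIs per cell in 20 bins of each library, with low-UMI cells shaded. Retnlg falls from 21995 CPM in the lowest bin of Young to 604 CPM between the 45th and 50th percentiles, whereas the azurophil granule list is higher in the lowest bin than between the 10th and 15th percentiles in Old and Ctrl.

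Cells of all ranges were clustered by their genes and clusters were named only from the marker lists, so the next values describe the clusters and carry no test. Clusters called maturing-neutrophil-like held 72.9% of low-UMI cells in Young (95% Clopper-Pearson interval 68.3 to 77.1), 53.6% in Old (49.2 to 57.9) and 33.6% in Ctrl (29.6 to 37.8). They held 21.3%, 12.3% and 5.99% of middle cells. The Young share of middle cells depended on the clustering, at 6.57% with Leiden resolution 0.5 and 9.01% with resolution 2, and that of low-UMI cells was 60.8% and 63.7%. The low-UMI range took 15.7% of all maturing-neutrophil-like cells in Young, 19.2% in Old and 23.3% in Ctrl, against 4.94%, 4.96% and 4.88% of cells of any kind. At resolution 0.5 these shares were 33.6%, 16.3% and 24.1%, and at resolution 2 27.6%, 18.9% and 23.2%, so the order of the libraries is not settled. In Young most of these low-UMI cells, 255, lay in a single cluster led by interferon-stimulated genes, with no marker of the class among its top 10 genes, and 1686 of the 1695 cells of that cluster came from Young. In Old, 206 lay in another cluster and 75 in the third, and the same clusters held 53 and 124 low-UMI cells of Ctrl. The class was therefore made up of different clusters in different libraries.

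The other low-UMI cells also differed between libraries. Promyelocyte-like clusters held 4.12% of low-UMI cells in Young, 13.7% in Old and 13.2% in Ctrl, against 19.4%, 9.64% and 16.4% of middle cells, but these shares depended on the clustering. At resolution 0.5 they were 2.18%, 12.2% and 15.7% against 1.98%, 1.07% and 23.9%, and at resolution 2 3.39%, 11.03% and 10.0% against 14.5%, 9.196% and 10.0%. Clusters of other blood cells held 12.6%, 1.52% and 3.02% of low-UMI cells against 10.3%, 0.828% and 0.910% of middle cells. Clusters with no name held 10.4%, 31.2% and 50.2% of low-UMI cells and 49.0%, 77.2% and 76.7% of middle cells.

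**Figure D5:**
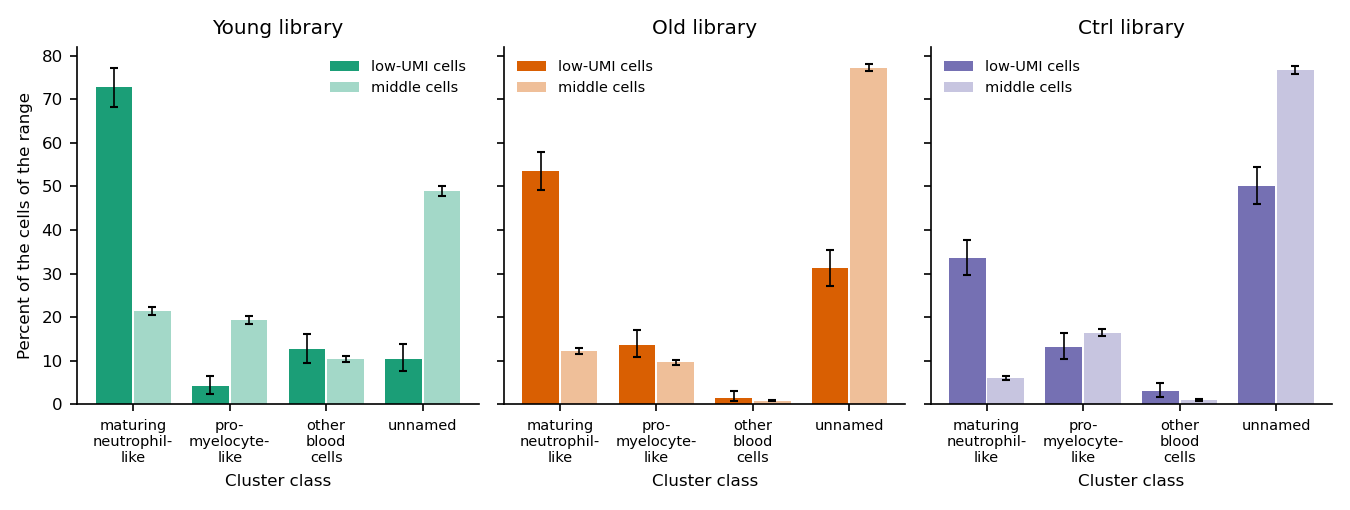
Percent of low-UMI and of middle cells in maturing-neutrophil-like, promyelocyte-like, other blood cell and unnamed clusters in each library, with 95% Clopper-Pearson intervals. Maturing-neutrophil-like clusters hold 72.9%, 53.6% and 33.6% of low-UMI cells in Young, Old and Ctrl against 21.3%, 12.3% and 5.99% of middle cells.

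Inside the maturing-neutrophil-like class, low-UMI cells still had more Retnlg than middle cells, with 29855 against 4845 CPM in Young, 34419 against 9238 CPM in Old and 26454 against 7666 CPM in Ctrl. Restricted to this class, the low-UMI levels of the 3 libraries were closer to each other than over all low-UMI cells, where they ranged from 9152 to 21995 CPM. Retnlg is on the list that named the class, so this closeness partly follows from how the cells were chosen. Low-UMI and middle cells of the class were spread differently over its clusters, with 206 low-UMI and 446 middle cells of Old in one and 75 and 674 in another. In Ctrl these clusters held 53 and 43 cells and 124 and 493 cells. These values therefore compare clusters as well as ranges. Mmp9 differed less within the class, with log2 ratios of 1.62, 0.42 and 0.80, and the specific granule list was lower by log2 ratios of −0.99, −1.12 and −0.78. Ribosomal protein genes, broadly lower over all low-UMI cells, differed little within the class, with log2 ratios of −0.19, −0.29 and −0.01. Malat1 kept log2 ratios of 1.08, 0.90 and 0.58. When middle cells were weighted to the cluster mix of low-UMI cells, 417 genes rose and 96 fell by edgeR's test. Of the 4958 genes with a mean of at least 10 CPM in the weighted middle cells, 365 rose and 96 fell, and of the 15 maturing neutrophil genes among them 10 rose.

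In the promyelocyte-like class, low-UMI and middle cells lay largely in different clusters. Of its low-UMI cells, 7 of 17 in Young, 57 of 72 in Old and 52 of 70 in Ctrl lay in a single cluster rich in mitochondrial RNA, which held 41 of 1458, 29 of 919 and 119 of 1605 of its middle cells, so the values that follow compare clusters as well as ranges. Mitochondrial genes took 66428 CPM in Young (17 cells), 80549 CPM in Old (72 cells) and 94308 CPM in Ctrl (70 cells), against 27313, 26513 and 28761 CPM in middle cells of the class. Over 5% mitochondrial UMIs were found in 47.1%, 68.1% and 68.6% of them, whereas among low-UMI maturing-neutrophil-like cells the share was 0% in Young and Old, which allows a share of up to 0.997% of 301 and 1.06% of 282 cells, and 0.562% in Ctrl. Specific granule RNA, a product of a later stage, stood at 76859, 191327 and 145435 CPM against 45167, 27940 and 37663 CPM. The cluster was named from 7 raised azurophil granule genes, a name that does not settle the stage of its cells. Inside it, specific granule RNA stood at 133055, 235908 and 185810 CPM in low-UMI cells against 135114, 127959 and 130434 CPM in middle cells. Outside that cluster it differed less, with 38513, 32126 and 28827 CPM in low-UMI cells against 43981, 26165 and 34131 CPM, whereas mitochondrial genes stood at 38915, 68623 and 51330 CPM against 26684, 25754 and 27276 CPM. Elane had no single direction, with 29302 against 23761 CPM in Young, 14353 against 18657 CPM in Old and 25462 against 22480 CPM in Ctrl. The median mitochondrial share of the cluster was 8.30% in Young, 6.997% in Old and 7.69% in Ctrl. The part of cell damage in these differences was not tested.

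Low-UMI cells varied widely among themselves. Retnlg made up a median of 1.28% of the UMIs of a low-UMI cell in Young, 0.625% in Old and 0.0374% in Ctrl, and 5.98%, 5.49% and 4.12% at the 90th percentile, against medians of 0.0414%, 0.0561% and 0.0183% in middle cells. After thinning to 2500 UMIs per cell, 91.3%, 92.6% and 67.9% of low-UMI cells had a Retnlg UMI, against 66.7%, 76.0% and 42.0% of middle cells. B- and NK/T-like cells, which should lack the gene, had one in 64.8% (244 cells), 62.5% (8 cells) and 33.3% (30 cells), so a single UMI of Retnlg did not tell middle cells from that background. At 10 or more thinned UMIs the shares were 58.6%, 52.3% and 25.3% of low-UMI cells, 6.00%, 9.35% and 2.65% of middle cells, and 1.23%, 12.5% and 3.33% of B- and NK/T-like cells. For Mmp9, 72.2%, 62.9% and 43.6% of low-UMI cells had a UMI, against 17.4%, 22.1% and 12.3% of middle cells and 9.84%, 12.5% and 6.67% of B- and NK/T-like cells. Before thinning, the Mmp9 shares were 73.6%, 69.0% and 45.5% in low-UMI and 31.8%, 46.0% and 23.9% in middle cells, and those of Retnlg 93.5%, 97.0% and 71.9% against 96.4%, 99.7% and 82.6%. Median depths of B- and NK/T-like cells were 7176 UMIs in Young, 8998 in Old and 4492 in Ctrl.

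With cells thinned to 1000 UMIs, the median cosine between a cell and the summed profile of its library was 0.933, 0.936 and 0.952 for low-UMI cells of Young, Old and Ctrl, against 0.976, 0.978 and 0.978 for middle cells. Of low-UMI cells, 10.7%, 7.61% and 9.25% lay above the middle median of their library. Middle cells gave 87.8%, 88.97% and 88.1% of the UMIs of these summed profiles, so their closeness to them is partly fixed by how the profiles were made. Neutrophil RNA was found in cells of other types, and whether it was free RNA or came from doublets was not tested. S100a8, S100a9, Ngp and Camp together made up 5.64% of UMIs in 38 low-UMI B- and NK/T-like cells of the 3 libraries, against 35.2% in all low-UMI cells and 10.5% in 224 B- and NK/T-like cells of the middle range. By library, the middle range gave 8.82% in Young (198 cells), 32.4% in Old (5 cells) and 17.7% in Ctrl (21 cells). The low-UMI range gave 5.62% (28 cells), 6.22% (3 cells) and 5.42% (7 cells). Retnlg went the other way in Young, with 1476 CPM in low-UMI against 495 CPM in middle B- and NK/T-like cells. All middle cells of Young had 1032 CPM. In Old it stood at 95.7 against 1451 CPM and in Ctrl at 184 against 422 CPM, from 1 and 4 low-UMI UMIs. The profile of empty droplets was not used here, so the share of free RNA in a low-UMI cell was not estimated.

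Trimming within each library, as done here, took a share of RNA that depended on the gene. The paper's methods give such UMI limits for its recombined dataset. The cell numbers it prints, 8362, 10597 and 10869, are those of all barcodes, low-UMI cells included. Low-UMI cells held 25.7% of all Retnlg UMIs of the Young library (95% interval 25.4 to 26.0), 19.8% in Old (19.6 to 19.96) and 24.0% in Ctrl (23.7 to 24.3), beside 1.502%, 1.66% and 1.47% of all UMIs. They held 16.4%, 9.19% and 12.98% of the UMIs of Mmp9 and 20.7%, 13.3% and 21.7% of those of Mmp8. With low-UMI cells added to middle cells, the Retnlg level would be 1385 CPM in Young against 1032 CPM without them, 1721 against 1393 CPM in Old and 608 against 465 CPM in Ctrl. The ratio of Old to Young for Retnlg was 1.35 in middle cells and 1.24 with low-UMI cells added, and for Mmp9 1.49 and 1.37. The share of maturing-neutrophil-like cells was 21.3%, 12.3% and 5.99% in middle cells and 24.0%, 14.5% and 7.41% with low-UMI cells added, and at the other resolutions the class was smaller in Young. Each library of 1 pool has no replicate against which these shifts could be set.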

How the data were processed

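Per the labels and the paper's methods, the authors sorted CD133+ bone marrow cells, prepared 10x Chromium 3′ libraries, and made the deposited UMI counts with STAR and Cell Ranger 2.1.0 on mm10. Each value is a whole, unscaled count, and 27998 genes are listed. The Young, Old and Ctrl libraries held 81434722, 138030352 and 108985799 UMIs. Percentiles of UMIs per cell were taken over all barcodes of a library. The members and gene lists were chosen with earlier results of these data known.

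Counts were summed per library and range and tested with edgeR 4.0.16 (quasi-likelihood, R 4.3.3), scaled by total UMIs, for genes with a mean of at least 10 CPM. The library was the block, since both sums of a library come from the same mice. DESeq2 1.42.0 was an alternative. Errors are SDs over 3 libraries. Intervals at 95% cover counting error only, and a count of 0 was set at 3 UMIs. Genes named by rule are all members of the maturing neutrophil, specific granule and azurophil granule lists, Prom1, the most abundant gene of each other list, and the 10 highest and 10 lowest genes by their smallest log2 ratio over the libraries, among genes with a mean of at least 50 CPM, an adjusted p below 0.05 and 1 direction. Other genes were named after their values were seen.

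Cells were clustered with scanpy 1.11.5 (Leiden resolution 1, 15 neighbours, 30 components, 2000 variable genes). A cluster was named from at least 3 markers at 10 CPM and 3-fold over the other cells, limits set after the clusters were seen. No doublet caller was run. Of 211 list genes, 5 had no match (Cebpd, Ighm, Igkc, Trbc1 and Trbc2). Positions are from GENCODE M21 (27645 gene identifiers found) and promoters from RefSeq. The edgeR step was tested on simulated data. Some items are not reported here.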

Additional observations from a re-analysis of the deposited data

Results flagged for a closer look

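Several results had opposite directions in different libraries, with counting intervals on opposite sides of 0. The difference between libraries was not tested, since each is a single pool. For the basophil and mast cell list, the log2 ratio of summed CPM in low-UMI over middle cells was 0.59 in Young, −2.55 in Old and 0.93 in Ctrl, and for Prss34, a serine protease of basophils, it was 0.52, −3.77 and 0.51. For the mitochondrially encoded list it was −0.16, 0.61 and 0.69, and for mt-Atp6, its most abundant gene, −0.28, 0.50 and 0.63. Granule genes differed in the same way. The ratios were −0.23, −0.16 and 0.18 for Ltf, −1.01, −0.14 and 0.12 for Ctsg, the cathepsin G gene of azurophil granules, and −1.04, 0.0227 and 0.16 for Mpo, in the same order of libraries.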

How the results depend on the processing

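The count of genes that rose, 1080 in the comparison reported, was 11 against cells of the 5th to 10th percentile, 417 with middle cells weighted to the cluster mix, 324 with a mean of at least 50 CPM, 1667 with no filter (17111 genes tested) and 437 without the replicate block of the library. The count that fell, 1985, was 1088 with the lower limit at the 2nd percentile, 0 against the 5th to 10th percentile, 96 with the mix weighted, 1269 with TMM, 1056 with DESeq2, 865 with a mean of at least 50 CPM and 1058 without the replicate block. Leaving out each library in turn gave 832 to 972 genes that rose and 1322 to 1815 that fell, the lowest without Old. Against the 5th to 10th percentile, the maturing neutrophil list's log2 ratio was 0.46, the specific granule list's −0.17, the azurophil list's 0.0146 and that of other blood cells 1.05, and the difference in likeness to the pooled library profile (the cosine) was −0.0216. With the mix weighted, the maturing list was at 0.72 and the azurophil list at −0.13. The other blood cell lists, 2.65 in the comparison reported, were at 1.68 with percentiles over all libraries together and at 1.59 with other blood cell clusters left out, and the cosine difference, −0.0370, was −0.0262 with the limit at the 10th percentile. The causes were not tested. Counted only for genes with a mean of at least 10 CPM in middle cells, an alternative chosen after seeing the data, 850 genes rose and 1985 fell. The share of low-UMI cells in maturing-neutrophil-like clusters and the mitochondrial share moved by less than their spread over libraries under every alternative run. That spread was wide, with cluster shares from 72.9% in Young to 33.6% in Ctrl. Leaving out a library cannot move such a mean by as much as the spread, so those alternatives could not show a shift.

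Against the 5th to 10th percentile, named genes that changed sign had log2 differences of −0.0517 for Wfdc21, −0.0712 for Lcn2, 0.0337 for Chil3, 0.14 for Fcnb, 0.0556 for Elane, 0.15 for Mpo, 0.0433 for Ms4a3, 0.11 for Prss57, 0.30 for Prom1, 0.0444 for Ube2c, −0.39 for Ms4a6c, −0.23 for Ly6a, 0.56 for Vcam1, 0.0441 for Hspa8, 0.00182 for Cyba, 0.11 for Asf1b, 0.25 for Aurka and 0.0616 for Ran. With the mix weighted they were −0.0850 for Wfdc21, −0.27 for Lcn2, 0.11 for Mpo, 0.0775 for Prom1, 0.44 for Vcam1 and 0.0600 for Hspa8. Ltf changed sign with the 10th percentile (0.11), on leaving out a library (−0.20 to 0.00662, positive without Young), with TMM (0.13) and with DESeq2 (0.15). Cyba did on leaving out a library (−0.0197 to 0.0122, positive without Young), with TMM (0.20), with DESeq2 (0.21) and with other clusters left out (0.000164), Mpo on leaving out a library (−0.51 to 0.0895, positive without Young) and with percentiles over all libraries (0.0908), and Vcam1 on leaving out a library (−0.46 to 0.0782, positive without Young) and at the 2nd percentile (0.17). Prss34 did with the 10th (1.30) and 2nd percentile (0.0384), TMM (0.17), percentiles over all libraries (0.88), a mitochondrial limit of 10% (0.0391), other clusters left out (0.56), a library left out (−0.46 to 0.52, positive without Old) and no replicate block (0.38). At the 2nd percentile Prom1 was at 0.0762 and Jchain at −1.06, and mt-Atp6 was at −0.15 with the 10% limit. Of 65 named genes tested, 55 were called, and of their 864 values under the alternatives 746 kept side and direction, 102 lost the call and 16 changed sign.

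Depth limits low-UMI levels below about 2.45 CPM in Young, and each condition is 1 library of pooled mice.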

Other observations

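The stefin A genes Stfa2l1 and Gm5483, members of a family of cysteine protease inhibitors with similar copies that can share reads, were among the genes most raised in low-UMI cells. Stfa2l1 stood at 147, 335 and 36.7 CPM in Young, Old and Ctrl against 7.96, 71.1 and 2.41 CPM in middle cells (log2 ratio 3.46 ± 1.07), and Gm5483 had a log2 ratio of 4.30 ± 1.24. Cyp4f18, a cytochrome P450 that acts on leukotriene B4, was steadier, with 124, 153 and 33.0 CPM against 16.6, 23.5 and 4.25 CPM (log2 ratio 2.85 ± 0.14). In each library the low-UMI level of these genes lay above the middle level, and Ctrl had the lowest level in both ranges.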
